A study of Homo sapiens with 10 samples.

Results

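Poly(A)-selected RNA was sequenced in 10 samples of U2392, as the labels name a human lymphoma line, each grown from a single edited cell, and the question was whether the expression change that accompanied the DDX3X R475C substitution was the same in 2 sets of these samples. Set A joined R475C replicates 1 and 3 to wild-type replicates 1 and 4. Set B joined R475C replicates 2 and 4 to wild-type replicates 2, 3, 5 and 6. For each gene the R475C effect, R475C minus wild-type on a log2 scale, was estimated in set A and in set B, and the genotype-by-set interaction was the set A effect minus the set B effect. Of 18358 genes tested, 68 were called in the interaction and 93 others were called in both sets with the same sign and no interaction call.

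All 10 samples had been through the same editing. The cells were electroporated with a plasmid for Cas9, a guide RNA and GFP, together with a double-stranded repair template, sorted for GFP and cloned from single cells. The template carried the R475C codon or, in the controls, the wild-type codon, and either template also held synonymous bases that remove the PAM or create a SpeI site, so the wild-type samples are edited clones and not untouched cells. The labels number the replicates but do not say which samples come from which clone. If samples of a pair share a clone, the spread between them is technical and the p-values are too small, and genotype and clone cannot be told apart.

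The DDX3X protein is a DEAD-box helicase that uses ATP to remodel RNA and acts in translation initiation. Mutations of its gene recur in lymphomas of B cells. Germinal centre B cells depend on transcription factors such as BCL6 and BACH2, and the shift to plasma cells is driven by PRDM1, IRF4 and XBP1. CR2 (CD21) is a complement receptor of the B-cell surface that lowers the threshold for antigen receptor signalling.

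The substituted residue is shown with its codon in capitals, read from the reference transcript ENST00000644876.1, exon 13 of 17, at chrX:41346312-41346362 on the plus strand of GRCh38. The capitals mark the arginine codon that R475C replaces, at chrX:41346336-41346338, in the unedited reference sequence.
DDX3X R475C site: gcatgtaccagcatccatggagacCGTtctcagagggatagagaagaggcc

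The sets were not given by the labels. They were read from the expression of these same libraries, so every gene took part in the choice, and the calls below sort genes and describe them without testing whether 2 kinds of clone exist. Levels are CPM, the counts of a gene scaled by library size. By Pearson correlation of log2 CPM, R475C replicates 1 and 3 lay at 0.963 to 0.973 with the set A wild-type samples and at 0.937 to 0.950 with those of set B. R475C replicate 4 lay at 0.938 to 0.949 with the set B wild-type samples and at 0.931 to 0.934 with those of set A. R475C replicate 2 was the least clear, at 0.957 to 0.966 with the set B wild-type samples, 0.947 to 0.962 with those of set A, 0.960 with R475C replicate 4 of its own pair, 0.961 with R475C replicate 3 and 0.956 with R475C replicate 1. The mean difference between the sets was called for 2595 genes (14.1%), a value the choice of sets fixes. Exchanging the R475C pairs between the sets would, by arithmetic, turn this set difference into the interaction and the interaction into the set difference, so the sorting of genes rests on which R475C pair is matched with which wild-type samples.

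Total counts ran from 8928539 in R475C replicate 4 to 53779005 in R475C replicate 2, and mitochondrial transcripts took 3.98% to 5.62%. The B-cell genes CD79A, CD79B, MS4A1 and PAX5 lay between 267 and 2170 CPM in every library. Of 5 T and natural killer cell markers CD3D and CD3G were at 0 in all 10 libraries, and the 5 summed to 0.435 to 2.42 CPM in set B R475C and to at most 0.559 CPM in the other groups. ZAP70, a T-cell kinase gene outside these 5, was called higher in set B R475C, at 2.42 and 6.15 CPM against 0.206 to 0.642 CPM in wild-type. Of 5 myeloid markers MPO was at 0 throughout, and the 5 summed to at most 1.15 CPM. EPCAM, an epithelial adhesion gene, was present at 16.4 to 37.2 CPM, and the 6 epithelial and fibroblast markers summed to 27.0 to 29.1 CPM in set A R475C and 24.3 to 27.6 CPM in set B R475C, against 35.4 to 37.8 CPM and 36.0 to 39.0 CPM in the wild-type samples of sets A and B. Single markers did not all follow these sums. DCN measured 0.146 and 0 CPM in set A wild-type and 7.29 to 14.9 CPM in set B wild-type. In R475C it measured 0 and 0.0302 CPM in set A and 2.67 and 3.40 CPM in set B. LUM was at 0 in all set A samples and in set B R475C, and at 0.561 to 2.93 CPM in set B wild-type. The part of these differences in the results was not tested. In bulk RNA, fewer cells expressing a gene and less RNA per cell cannot be told apart.

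A gene was called at a Benjamini-Hochberg adjusted p under 0.05 in edgeR's quasi-likelihood test. In set A 250 genes were called (1.36% of those tested), 95 higher (0.517%) and 155 lower (0.844%) in R475C. In set B 559 genes were called (3.04%), 290 higher (1.58%) and 269 lower (1.47%). The interaction was called for 68 genes (0.370%), and 1016 genes (5.53%) had an unadjusted interaction p under 0.05. Sets differed in precision, since set B has 4 wild-type samples and set A has 2. The median standard error was 0.25 for the set A effect, 0.22 for the set B effect and 0.33 for the interaction, in log2 units.

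Of the 68 interaction genes, 29 were called in set A only (0.158% of genes tested), 31 in set B only (0.169%), 5 in both sets with opposite signs (0.0272%), 2 in both sets with the same sign but unequal size (0.0109%), and 1 in neither set (0.00545%). The shared class held 93 genes (0.507%), 45 higher (0.245%) and 48 lower (0.261%) in R475C in both sets. A further 121 genes (0.659%) were called in set A and 428 (2.33%) in set B without an interaction call, and of these 103 and 363 had the same sign in the other set. A call in 1 set alone is not a difference between the sets, so these genes were not placed in a class.

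The same 100 genes were called in both sets, 40.0% of the set A calls and 17.9% of the set B calls. Of the 250 genes called in set A, 213 (85.2%) had the same sign in set B, and of the 559 called in set B, 466 (83.4%) had the same sign in set A, beside 65.9% of all genes tested. Across all genes, which are not independent replicates, the set A and set B effects correlated with Pearson's r = 0.234 and Spearman's rho = 0.352. The sets share no sample.

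**Figure D1:**
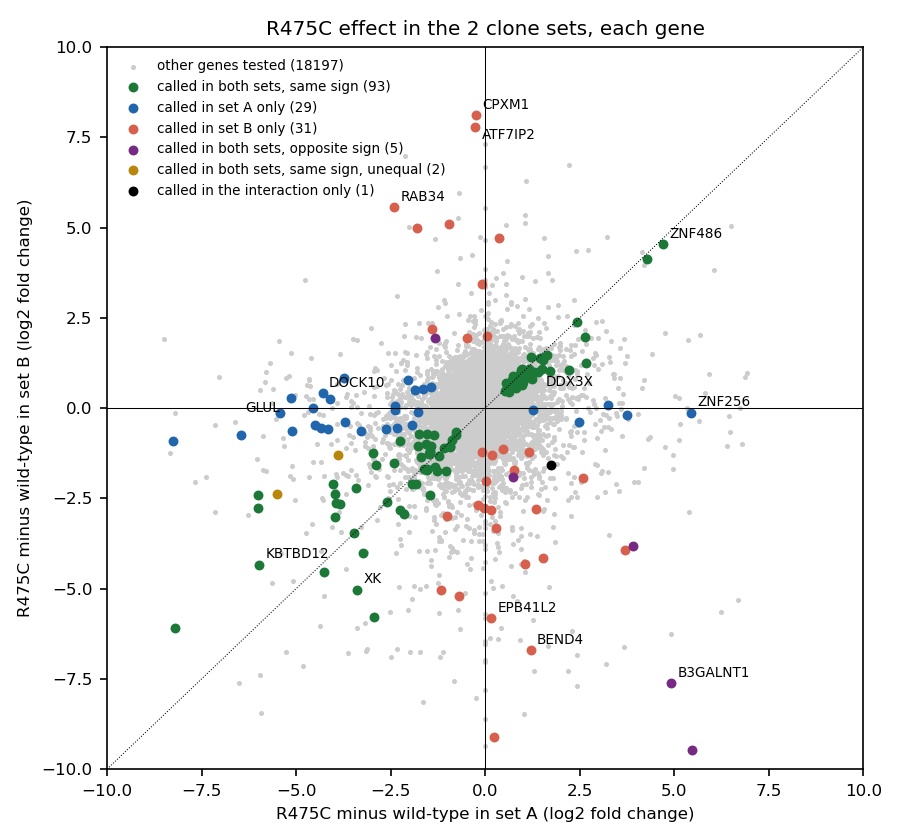
Each point is a gene, with the R475C effect in set A on the x axis and in set B on the y axis, both as log2 fold change, and the dotted line marks equal effects. The 93 shared genes lie where both effects have the same sign, and 17 of them differ by at least 1 log2 unit between the sets. Of the 29 genes of set A only, 16 have a set B effect under 0.5 log2 units in size. Of the 31 genes of set B only, 16 have a set A effect under that size. The others of these classes lie farther from the axes. B3GALNT1 lies in the lower right quadrant.

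Most interaction genes had 1 of the 4 groups of samples apart from the other 3. In 52 of 68 (76.5%) a single group mean lay farther from its nearest neighbour than the other 3 spanned, on the log2 scale, beside 46.6% of all genes tested. The lone group was the set A R475C pair at the low end for 18 genes, the set B R475C pair at the low end for 11 and the set B wild-type samples at the low end for 8. The lowest of the 4 group means was under 1 CPM in 40 of the 68 (58.8%), beside 26.1% of all genes. The interaction exceeded 2 log2 units in size for 58 genes and 4 for 29, and its median size was 3.58. All of these are values that a call in the interaction favours.

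Among the 29 genes called in set A only, 24 were lower (0.131% of genes tested) and 5 higher (0.0272%) in R475C, and the set B effect was under 0.5 log2 units in size for 16 of them. The lower genes included surface receptors of B cells, a metabolic enzyme and regulators of the cell skeleton, and 17 of the 29 had the set A R475C pair as a lone low group.

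CR2, the complement receptor introduced above, at chr1:207454230-207489895, measured 14.5 and 17.4 CPM in the set A wild-type samples and 1.03 and 0.784 CPM in the set A R475C samples. In set B it measured 10.9, 15.9, 15.3 and 13.8 CPM in wild-type and 9.14 and 9.33 CPM in R475C. Its level was thus about 1 CPM in the set A R475C pair and above 9 CPM in the 8 other samples, with effects of -4.15 (SE 0.28) in set A and -0.59 (SE 0.21) in set B.

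TNFRSF13B (TACI), a receptor for the survival factors BAFF and APRIL, measured 81.4 and 80.8 CPM in set A wild-type, 22.8 and 19.5 CPM in set A R475C, 63.0 to 95.5 CPM in set B wild-type and 57.5 and 68.3 CPM in set B R475C. It fell by 1.94 log2 units (SE 0.20) in set A, and the set B groups overlapped, with an effect of -0.46 (SE 0.17). Its annotated span overlaps that of the pseudogene TBC1D27P on the same strand, and reads of the 2 genes may not be separable. CD44, a hyaluronan receptor used in homing and adhesion, measured 80.4 and 67.9 CPM in set A wild-type, 23.3 and 20.2 CPM in set A R475C, 60 to 76.7 CPM in set B wild-type and 60.6 and 57.7 CPM in set B R475C. CD44 was 3.42-fold lower in set A, and its set B effect was -0.12 (SE 0.14).

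GLUL, glutamine synthetase, at chr1:182381704-182392206, measured 28.6 and 37.6 CPM in set A wild-type and 0.672 and 1.12 CPM in set A R475C. In set B its wild-type samples lay at 48.0 to 77.7 CPM and its R475C samples at 71.6 and 79.1 CPM. The fall in set A was 35.2-fold (log2 -5.14, SE 0.30) and the set B groups overlapped (0.28, SE 0.19).

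DOCK10, an exchange factor for small GTPases of the cell skeleton, followed the same order. It measured 15.5 and 14.1 CPM in set A wild-type, 0.827 and 0.694 CPM in set A R475C, 21.5 to 23.6 CPM in set B wild-type and 30.8 and 29.1 CPM in set B R475C. Its effects were -4.30 (SE 0.21) in set A and 0.40 (SE 0.14) in set B, where the 2 groups did not overlap but the gene was not called. PDE3B, a phosphodiesterase that degrades cyclic AMP and cyclic GMP, measured 15.4 and 17.5 CPM in set A wild-type and 0.362 and 0.935 CPM in set A R475C, while the 6 set B samples lay between 8.84 and 19.8 CPM. The set A effect of PDE3B was -4.57 (SE 0.48) and the set B effect 0.01 (SE 0.33).

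RPRM, a p53-dependent inhibitor of entry into mitosis, measured 10.9 and 16.1 CPM in set A wild-type and 0.0517 and 0.211 CPM in set A R475C. In set B it measured 12.35 to 27.6 CPM in wild-type and 11.9 and 11.4 CPM in R475C. It was 87.3-fold lower in set A (log2 -6.45, SE 0.53), beside -0.74 (SE 0.31) in set B, where it was not called. PIEZO2, a mechanically gated ion channel, measured 68.7 and 67.8 CPM in set A wild-type and 2.43 and 5.25 CPM in set A R475C. In set B PIEZO2 measured 69.8 to 98.1 CPM in wild-type and 106.7 and 100.9 CPM in R475C. Its effects were -4.10 (SE 0.28) in set A and 0.26 (SE 0.20) in set B. An antisense locus inside PIEZO2, ENSG00000264843, was called in the same class. Reads of the 2 strands may not be separable, since no source used here gives the strand setting.

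In 4 of the 29 genes it was the set A wild-type pair that stood alone at the high end. SPARC, a secreted matrix glycoprotein, measured 6.07 and 8.78 CPM there and 0.207 to 0.907 CPM in the 8 other samples, with effects of -5.12 (SE 0.57) in set A and -0.63 (SE 0.51) in set B. PRTG, a membrane protein of the immunoglobulin superfamily, measured 67.5 and 71.9 CPM in set A wild-type and 2.99 to 10.0 CPM elsewhere. The set A R475C mean of SPARC, 0.209 CPM, was below the set B means of 0.589 CPM in wild-type and 0.462 CPM in R475C, as was that of PRTG, 3.07 CPM beside 6.45 and 4.41 CPM.

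The other lower genes of this class were ADAMTS17, ENSG00000264660, GSPT2, ITGB8, MVB12B, PTPRG, RASSF8, RASSF8-AS1, S100A10, SLFN11, SUSD1, TIE1 and VWDE. S100A10, a calcium-binding-protein family member that pairs with annexin A2, measured 14.7 and 21.8 CPM in set A wild-type, 2.48 and 4.31 CPM in set A R475C and 41.0 to 63.7 CPM across set B. SLFN11, known for sensitizing cells to DNA-damaging drugs, measured 35.8 and 47.2 CPM in set A wild-type and 6.56 and 6.85 CPM in set A R475C. In set B SLFN11 measured 70.1 to 102.5 CPM in wild-type and 52.0 and 68.3 CPM in R475C. Its effects were -2.63 (SE 0.23) in set A and -0.57 (SE 0.18) in set B, where it was not called. Both genes were therefore lower in set A than in set B in either genotype, and lowest in the set A R475C pair. RASSF8-AS1 had no count in the set A R475C pair against 82 in the wild-type pair, at least 24.2-fold lower when 3 counts over the pair are taken as the floor.

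The 5 genes higher in R475C in set A only held 3 zinc-finger genes, in which the set A wild-type pair was the lone low group. ZNF256 measured 0.117 and 0 CPM in set A wild-type, 2.89 and 3.26 CPM in set A R475C, 4.94 to 5.67 CPM in set B wild-type and 4.22 and 5.49 CPM in set B R475C. ZNF175 measured 0.730 and 0.280 CPM, 7.91 and 6.40 CPM, 19.3 to 22.1 CPM, and 17.9 and 17.2 CPM in the same order of groups. ZNF181 measured 0.0876 and 0.280 CPM in set A wild-type, 1.60 and 1.78 CPM in set A R475C and 4.36 to 7.15 CPM across set B. In all 3 the set A R475C pair lay between the set A wild-type pair and set B, with set A effects of 5.45 (SE 0.56), 3.75 (SE 0.32) and 3.26 (SE 0.48).

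STXBP6, a SNARE-binding protein, showed the same order, at 0.964 and 1.28 CPM, 5.32 and 7.09 CPM, 17.7 to 20.4 CPM, and 16.8 and 12.6 CPM. ABLIM1, an actin-binding LIM protein, differed from these. It measured 118.5 and 149.1 CPM in set A wild-type, 165.3 to 208.7 CPM across set B and 285.3 and 360.2 CPM in set A R475C, which stood alone at the high end (1.27, SE 0.16, in set A and -0.07, SE 0.14, in set B).

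Among the 31 genes called in set B only, 10 were higher (0.0545% of genes tested) and 21 lower (0.114%) in R475C, and the set A effect was under 0.5 log2 units in size for 16. In 23 of the 31 the set A effect had the opposite sign without being called. Of the 29 genes called in set A only, 14 had a set B effect of opposite sign. Among all genes tested 65.9% had the same sign in both sets, and a call in the interaction favours opposite signs.

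CPXM1, a secreted protein of the carboxypeptidase family, at chr20:2794069-2800637, measured 26.7 and 55.7 CPM in the set B R475C pair and 0.0935 to 0.234 CPM in the 8 other samples. This set B effect of 8.10 (SE 0.37) was the largest rise of its class, and set A stayed near absence in both genotypes. CELF2, an RNA-binding regulator of splicing, measured 22.9 and 34.3 CPM in set B R475C, 0.267 to 1.68 CPM in set B wild-type, 0.350 and 0.479 CPM in set A wild-type and 0.103 and 0.121 CPM in set A R475C. The homeobox gene HOXA7 measured 5.66 and 3.84 CPM in set B R475C and 0 to 0.599 CPM elsewhere. These are the 3 genes of the class in which the set B R475C pair stood alone at the high end. DESeq2 and the replicate block called the interaction of CPXM1 and CELF2, but limma-voom and thinning to the smallest library did not.

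In 7 genes of the class the set B wild-type samples stood alone at the low end. ATF7IP2, related to a partner of the histone methyltransferase SETDB1, measured 0, 0, 0.0349 and 0.0588 CPM in set B wild-type, 8.50 and 6.04 CPM in set B R475C, and 14.2 to 17.4 CPM in all 4 set A samples. The set B wild-type libraries held 3 ATF7IP2 counts in all against 504 in R475C, a ratio of 278.7 with a 95% counting interval of 94.8 to 1356. RAB34, a small GTPase of membrane traffic, measured 0 to 0.324 CPM in set B wild-type, 4.69 and 8.24 CPM in set B R475C, 4.91 and 8.82 CPM in set A wild-type and 0.879 and 1.66 CPM in set A R475C. ZNF555 measured 0.0467 to 0.481 CPM in set B wild-type and 3.83 to 9.90 CPM in the other 6 samples.

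EPB41L2, a protein of the membrane skeleton, at chr6:130839347-131063322, measured 82.1, 81.6, 73.5 and 74.7 CPM in set B wild-type and 1.67 and 0.439 CPM in set B R475C. In set A it measured 77.2 and 82.3 CPM in wild-type and 87.1 and 90.6 CPM in R475C. The 8 other samples thus lay within 73.5 to 90.6 CPM, and the set B fall was 56.9-fold (log2 -5.83, SE 0.26) beside 0.16 (SE 0.20) in set A. EPB41L2 was also the single interaction gene still called when the closest samples were summed (below).

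BEND4, a BEN-domain gene, measured 37.6 to 62.9 CPM in set B wild-type, 0.322 and 1.098 CPM in set B R475C, 2.22 and 0.719 CPM in set A wild-type and 3.62 and 3.41 CPM in set A R475C. Here the set B wild-type samples were the high group, and the set A samples lay close to the set B R475C pair. BEX4 measured 9.04, 9.12, 12.6 and 9.50 CPM in set B wild-type, 0.435 and 0.879 CPM in set B R475C, 1.29 and 3.79 CPM in set A wild-type and 7.75 and 6.70 CPM in set A R475C. Its set B effect was -4.16 (SE 0.49), and its set A effect, 1.52 (SE 0.42), pointed the other way without being called. EPDR1 had the same pattern, with a set A effect of 2.58 (SE 0.63) and a set B effect of -1.94 (SE 0.43).

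HK1, the hexokinase of the first step of glycolysis, measured 43.5, 69.4, 42.9 and 59.96 CPM in set B wild-type and 24.2 and 25.5 CPM in set B R475C, a fall of 1.13 log2 units (SE 0.19). Its set A samples measured 100.2 and 107.3 CPM in wild-type and 138.9 and 147.5 CPM in R475C, so the groups stood apart in both sets in opposite order (0.47, SE 0.20, in set A). PEG10, an imprinted gene derived from a retrotransposon, measured 239.3 to 391.1 CPM in set B wild-type, 50.2 and 45.2 CPM in set B R475C and 117.9 to 186.3 CPM over the 4 set A samples, where the genotypes overlapped. LIN7A, a scaffold protein of cell junctions, measured 4.08 to 6.65 CPM in set B wild-type and 0 to 0.759 CPM in all other samples. BMP7, a secreted growth factor, measured 133.2 to 156.7 CPM in all set A samples, 2.62 to 3.69 CPM in set B wild-type and 0.927 and 0.220 CPM in set B R475C.

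The remaining genes of the class were AGMAT, GOLM1, RASL10B and RGS8, which rose, and C11orf21, CLEC17A, ENPP1, HCG11, HEPACAM2, LACTB2, MAGEH1, MPP7, PLCB1, TEAD4, TTC39C and ZNF697, which fell. CLEC17A, a lectin of B cells, measured 5.14 to 8.26 CPM in set B wild-type and 0.852 and 0.879 CPM in set B R475C. In set A it measured 20.4 and 20.8 CPM in wild-type and 10.9 and 9.68 CPM in R475C, where the effect was -1.003 and not called. C11orf21 had no count in the set B R475C pair against 272 in wild-type, at least 54.7-fold lower by the same floor.

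Upstream sequences are shown for 4 of these genes, 1 for each class and direction, chosen among genes named by rule whose window held no more than 10 bases of any annotated exon. Each is the 250 bases before the gene's start in RefSeq (GRCh38.p14), 5′ to 3′ on the gene's strand, with the dinucleotide CG in capitals, which reads the same on both strands.
DOCK10 (chr2:225042469-225042718, minus strand): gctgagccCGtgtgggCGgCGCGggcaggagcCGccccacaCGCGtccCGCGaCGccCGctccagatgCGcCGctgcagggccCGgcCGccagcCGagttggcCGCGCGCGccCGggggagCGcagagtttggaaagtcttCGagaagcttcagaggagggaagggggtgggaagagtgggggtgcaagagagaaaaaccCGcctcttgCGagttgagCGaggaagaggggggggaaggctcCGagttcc
ZNF256 (chr19:57947707-57947956, minus strand): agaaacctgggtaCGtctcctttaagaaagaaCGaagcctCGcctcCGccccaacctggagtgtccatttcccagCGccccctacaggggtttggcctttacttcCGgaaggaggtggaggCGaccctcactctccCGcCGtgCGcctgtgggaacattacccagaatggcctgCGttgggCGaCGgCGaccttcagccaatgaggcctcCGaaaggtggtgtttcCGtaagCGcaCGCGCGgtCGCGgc
CPXM1 (chr20:2800628-2800877, minus strand): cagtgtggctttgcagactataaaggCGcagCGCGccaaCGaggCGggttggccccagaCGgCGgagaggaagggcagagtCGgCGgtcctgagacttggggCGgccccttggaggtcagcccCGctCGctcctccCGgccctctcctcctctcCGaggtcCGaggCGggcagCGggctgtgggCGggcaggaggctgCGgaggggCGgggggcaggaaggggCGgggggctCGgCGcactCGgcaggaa
BEX4 (chrX:103214842-103215091, plus strand): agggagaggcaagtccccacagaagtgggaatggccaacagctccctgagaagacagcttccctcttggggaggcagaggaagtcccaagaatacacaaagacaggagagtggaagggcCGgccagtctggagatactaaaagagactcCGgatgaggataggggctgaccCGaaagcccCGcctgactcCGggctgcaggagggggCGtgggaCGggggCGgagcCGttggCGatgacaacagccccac
CG was present 27 times in the DOCK10 window, 22 times in ZNF256, 24 times in CPXM1 and 10 times in BEX4. Of the 11336 tested genes with such a window, 98.9% held at least 1 CG, and the median count was 20. The median count was 17 in the 51 interaction genes with a window and 20 in 70 shared genes. It was 21 in 25 genes of set A only and 10 in 21 genes of set B only. A window was available for 75.0% of the interaction genes and 61.7% of all tested genes. These medians therefore do not stand for whole classes, and no difference between them was tested.

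**Figure D2:**
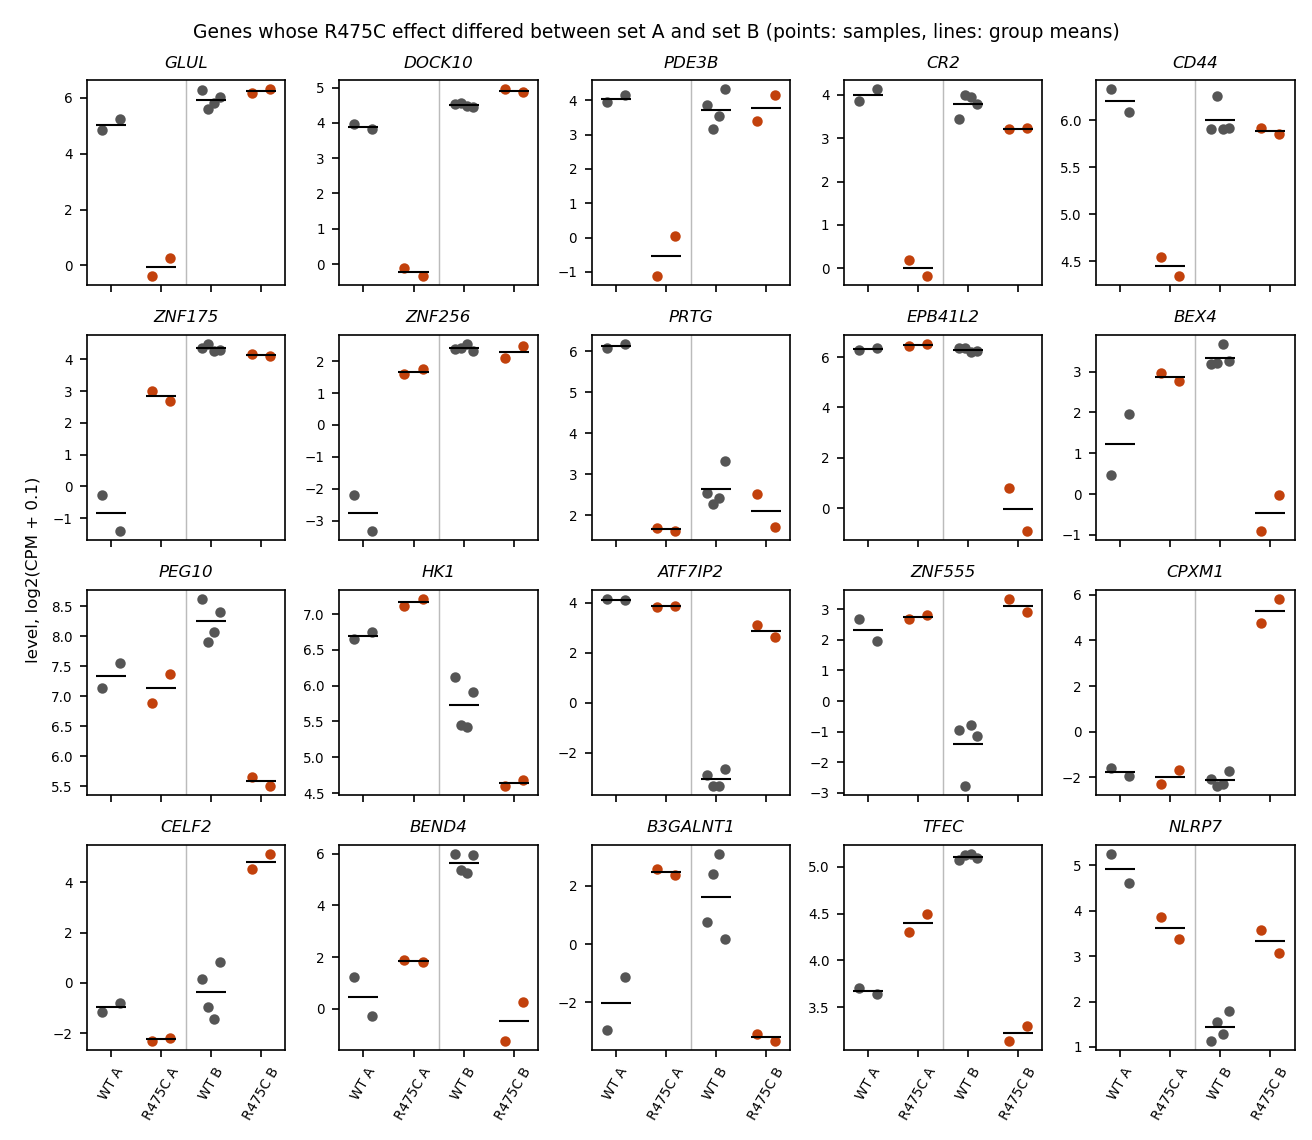
Level of 20 interaction genes as log2(CPM + 0.1) on the y axis, with each sample as a point and group means as lines, for wild-type (grey) and R475C (orange) samples of set A (left of each panel) and set B (right). GLUL, DOCK10, PDE3B and CR2 are low in the set A R475C pair alone, EPB41L2 in the set B R475C pair alone, and B3GALNT1 is low in set A wild-type and in set B R475C.

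In 5 genes both set effects were called with opposite signs, 4 of them higher (0.0218% of genes tested) and 1 lower (0.00545%) in R475C in set A. TFEC, a transcription factor of the MiT family, measured 12.97 and 12.4 CPM in set A wild-type and 19.7 and 22.6 CPM in set A R475C, a rise of 0.74 (SE 0.15). In set B it measured 33.6 to 35.0 CPM in wild-type and 8.73 and 9.77 CPM in R475C, a fall of 1.91 (SE 0.15). B3GALNT1, a glycosyltransferase of the globoside pathway, measured 0.0292 and 0.359 CPM in set A wild-type, 5.94 and 5.07 CPM in set A R475C, 1.03 to 8.40 CPM in set B wild-type and 0.0189 and 0 CPM in set B R475C. The pseudogene DPY19L2P1 had the same order, with 2 and 92 counts in set A wild-type and R475C and with 300 and 0 in set B, at least 60.3-fold lower in the latter. NLRP7, an NLR-family gene, went the other way, at 37.8 and 24.4 CPM against 14.5 and 10.3 CPM in set A and at 2.09 to 3.38 CPM against 11.9 and 8.35 CPM in set B. Its effects were -1.33 (SE 0.29) and 1.94 (SE 0.26), and the R475C samples of the 2 sets lay closer to each other than the wild-type samples did.

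ENAH and BMP3, both interaction genes, fell in both sets to unequal degrees. ENAH, an actin regulator of the Ena/VASP family, measured 25.3 and 22.6 CPM in set A wild-type and 0.620 and 0.453 CPM in set A R475C, and 30.6 to 35.6 CPM and then 5.91 and 6.81 CPM in set B. It was 45.5-fold lower in set A and 5.16-fold lower in set B. BMP3, a secreted growth factor, measured 39.3 and 31.1 CPM against 2.84 and 1.99 CPM in set A and 12.7 to 29.6 CPM against 8.73 and 8.46 CPM in set B. GALM, galactose mutarotase, was called in the interaction alone, with effects of 1.73 (SE 0.39) in set A and -1.59 (SE 0.42) in set B.

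**Figure D3:**
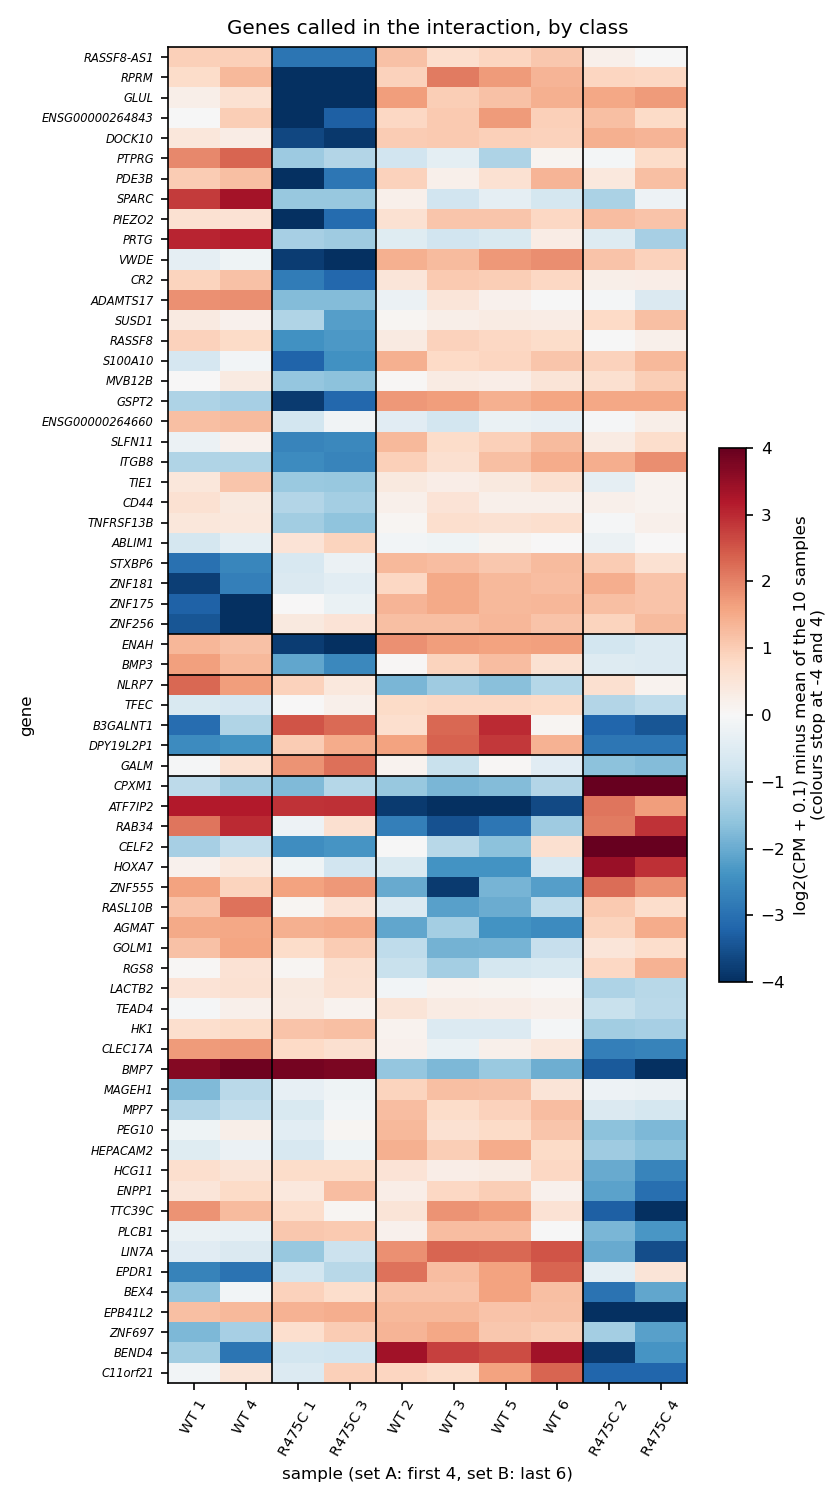
Level of 66 interaction genes (rows, grouped by class) in the 10 samples (columns, grouped by set and genotype), as log2(CPM + 0.1) minus the gene's mean, with colours ending at -4 and 4. Blue blocks in the set A R475C columns mark 18 genes with that pair as the lone low group, and blue blocks in the set B R475C columns mark 10.

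LACTB2 and ENSG00000264660 were the last genes inside, both at an adjusted p of 0.0491, and PRR15 and ENSG00000253645 the first outside, both at 0.0509 by the same edgeR test. Their interactions were 1.15, -2.18, -2.06 and -1.18 log2 units.

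Shared genes have the same sign in both sets by rule, and their sizes varied. Of the 93, 52 differed at least 2-fold in both sets, 65 had set effects within a factor of 1.5 of each other, and 17 differed by at least 1 log2 unit between the sets without an interaction call. In all 93 the wild-type and R475C samples did not overlap in either set, which 13.8% of all tested genes showed. A call in both sets favours such genes. The median smaller effect was 1.06 log2 units. Of the 93, 35 were also called in the mean difference between the sets, beside 14.1% of all genes tested. The choice of sets favours calls of that difference.

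DDX3X itself, the edited gene, measured 552.8 and 357.2 CPM in set A wild-type and 983.3 and 1046 CPM in set A R475C. In set B it measured 418.7, 436.2, 399.9 and 362.9 CPM in wild-type and 945.4 and 749.7 CPM in R475C. Its level was higher in R475C without overlap in each set, by 1.16 (SE 0.19) and 1.07 (SE 0.16) log2 units. A missense change need not alter the amount of transcript, so this level is no check of the genotype labels.

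BACH2, a transcription factor that restrains plasma cell formation, rose by nearly the same amount in both sets. It measured 81.4 and 87.95 CPM against 201.6 and 264.3 CPM in set A and 66.1 to 86.8 CPM against 198.8 and 213.4 CPM in set B, with effects of 1.46 (SE 0.16) and 1.40 (SE 0.13). XBP1, a driver of the secretory programme, fell in both. It measured 231.4 and 279.4 CPM against 140.0 and 137.1 CPM in set A and 193.6 to 269.6 CPM against 137.3 and 122.8 CPM in set B, with effects of -0.88 (SE 0.16) and -0.89 (SE 0.14). FUT8, the enzyme of core fucosylation of glycoproteins, fell by 0.94 (SE 0.13) and 1.06 (SE 0.12).

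CDKN1A (p21), an inhibitor of cyclin-dependent kinases, fell in both sets. It measured 73.0 and 157.3 CPM against 14.9 and 16.3 CPM in set A and 85.3 to 155.0 CPM against 34.0 and 53.4 CPM in set B, with effects of -2.88 (SE 0.36) and -1.59 (SE 0.31). Of its relatives, looked up after values were seen, CDKN1B fell by 0.78 and 0.75 log2 units and CDKN2C by 0.78 and 0.66, while CDKN2A, CDKN2B and CDKN2D were called in neither set. TP63, a p53-family transcription factor, fell by 3.85 (SE 0.65) and 2.67 (SE 0.63) from 9.43 and 9.54 CPM in set A and 1.44 to 4.53 CPM in set B.

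The largest shared falls among protein-coding genes of at least 5 CPM in a group were of KBTBD12, MARCKS, FAM171B, CREB3L1 and XK. NTN4, below that level, also fell in both sets from wild-type means of 2.51 CPM in set A and 0.821 CPM in set B. MARCKS, an actin-linked substrate of protein kinase C, measured 9.46 and 14.01 CPM against 1.09 and 0.483 CPM in set A and 20.5 to 28.1 CPM against 2.90 and 3.29 CPM in set B. CREB3L1, a factor released from the endoplasmic reticulum by proteolysis, measured 19.2 and 27.7 CPM against 2.48 and 2.47 CPM, and 10.5 to 18.9 CPM against 0.795 and 1.098 CPM. KBTBD12 fell by 5.97 (SE 0.79) and 4.33 (SE 0.55), FAM171B by 3.46 and 3.47, and XK, which carries a red cell antigen, by 3.38 and 5.03. KBTBD12 had 3 counts in the set A R475C pair against 221 in wild-type, a ratio of 65.2 with a counting interval of 22.0 to 318.7.

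The largest shared rises at that level were of ZNF486, ZNF831, NRP2, ZNF880 and CADPS. ZNF486 measured 0.292 and 0.200 CPM against 5.38 and 7.75 CPM in set A and 0 to 0.523 CPM against 5.43 and 8.02 CPM in set B, with like effects (4.69, SE 0.74, and 4.55, SE 0.57). ZNF831 rose by 4.29 and 4.13 and ZNF880 by 2.64 and 1.97. NRP2, a co-receptor for semaphorins and VEGF, rose by 2.44 (SE 0.41) and 2.38 (SE 0.51) from different levels, from 2.07 and 2.52 to 12.8 and 12.1 CPM in set A and from 0.0588 to 0.174 up to 0.435 and 1.21 CPM in set B. DESeq2 called NRP2 in both sets, but limma-voom, the replicate block and thinning to the smallest library did not. CADPS, a protein of regulated secretion, rose by 1.64 (SE 0.23) and 1.46 (SE 0.20).

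**Figure D4:**
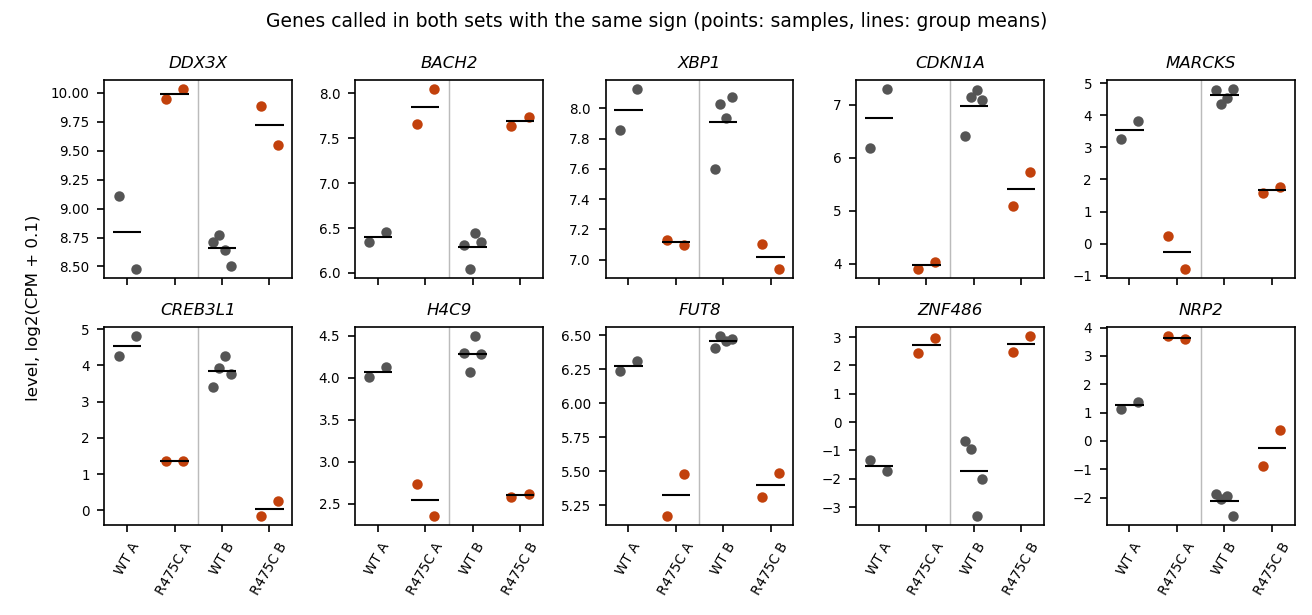
Level of 10 shared genes as log2(CPM + 0.1), drawn as for the interaction genes. In DDX3X, BACH2 and XBP1 the wild-type and R475C groups lie at about the same levels in both sets, while NRP2 moves by a like amount from different starting levels.

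Of the genes given whatever their values, those not named so far were called in 1 set or in neither. CD38, a surface enzyme of activated B cells and plasma cells, measured 212.9 and 207.5 CPM against 99.4 and 133.2 CPM in set A, a fall of 0.85 (SE 0.19), and 133.5 to 198.8 CPM against 175.3 and 202.8 CPM in set B (0.17, SE 0.16). The difference between these effects, -1.02 (SE 0.24), was not called. PRDM1 measured 8.47 and 7.79 CPM against 8.79 and 8.69 CPM in set A and 7.99 to 15.7 CPM against 4.83 and 4.61 CPM in set B, where it fell by 1.34 (SE 0.30). ZNF93 rose in set B by 5.13 (SE 0.53), with 1.05 (SE 0.58) in set A, and the neighbours C8orf88 and NECAB1 fell in set B by 5.58 and 5.29, with -2.04 and -1.93 in set A. The interaction was called for none of these by edgeR's test. BCL6 (0.73 in set A and 0.47 in set B), BCL2 (-0.54 and -0.21), IRF4 (-0.48 and -0.25), MS4A1 (-0.12 and 0.28), MYC (0.17 and 0.35) and CCR7 (-2.09 and -2.23) were called in neither set.

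Gene groups were read as counts beside the shares of all genes, 1.36% in set A, 3.04% in set B and 0.370% in the interaction. These shares are of edgeR's adjusted calls. DESeq2 called more, 175 genes in the interaction beside 68 by edgeR, and 5.53% of all genes had an unadjusted interaction p under 0.05 in edgeR's test. List counts of those kinds are to be read beside these larger values. Among 31 activated B-cell and plasma-cell genes, 7 fell and none rose in each set, with medians of -0.42 in set A and -0.43 in set B beside -0.01 and -0.00186 for all genes. XBP1 and FUT8 were called in both sets, and TNFRSF13B was the single interaction gene of the list by edgeR. In the interaction 9 members had an unadjusted p under 0.05 (2 higher, 7 lower), and DESeq2 called 4 lower. Among 30 germinal centre B-cell genes, 2 rose in set A and 5 in set B and none fell, with medians of 0.25 and 0.23. BACH2 was the gene called in both. No member of this list was called in the interaction by edgeR, where 5 had an unadjusted p under 0.05 (3 higher, 2 lower), and DESeq2 called 1 in each direction.

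Among lists with at least 15 tested members, canonical histone genes had the lowest medians, -0.97 in set A and -0.83 in set B over 32 tested members. The same 6 genes, H1-2, H2AC6, H2BC11, H2BC12, H3C10 and H4C9, were called lower in each set, and all 6 were shared. DESeq2 also called all 6 in both sets. H2AC6 and H3C10 were not called in both by limma-voom. After thinning to the smallest library H2BC11 and H3C10 were not, and with the replicate block H3C10 was not. H4C9 measured 16.0 and 17.5 CPM against 6.56 and 5.01 CPM in set A and 16.7 to 22.4 CPM against 5.91 and 6.04 CPM in set B. H1-2, a replication-dependent linker histone, fell by 1.22 (SE 0.21) and 1.33 (SE 0.20). Poly(A) selection recovers few canonical histone transcripts, most of which have no such tail, and near-identical histone genes can share reads. No member was called in the interaction by edgeR, with 1 at an unadjusted p under 0.05, nor by DESeq2.

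Among 23 pan-B-cell identity genes CR2 was among those called in the interaction, and the list medians were 0.06 and 0.10. Among 31 homing and adhesion genes, 4 fell in set A, and 4 fell and 1 rose in set B, with medians of -0.56 and -0.39, and CD44 was the 1 gene called in the interaction by edgeR, where DESeq2 called 2 lower. It is also the 1 such gene by either tool among 34 NF-kB subunits and targets. HK1 was the 1 such gene by edgeR among 36 glycolysis and hypoxia genes, with medians of -0.01 and -0.26, and DESeq2 called 2 higher. Of 42 endoplasmic reticulum chaperone and unfolded protein response genes, 2 fell in set A and 6 in set B, and CREB3L1 and XBP1 were shared. No G2/M gene (55 tested) was called in either set or the interaction by edgeR, and none had an unadjusted p under 0.05 in any of the 3 comparisons, nor did DESeq2 call one. The lists overlap, so their counts are not independent.

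The list of epithelial and fibroblast markers, with 6 tested members, had medians of -0.57 in set A and -1.39 in set B. In set B 3 were called lower, FN1, LUM and DCN, and none was called in the interaction. LUM was at 0 CPM in all set A samples and DCN at no more than 0.146 CPM. With so few counts in set A, the lack of an interaction call for LUM and DCN tells nothing about a difference between the sets. Among lists with at least 15 tested members, the widest gap between the set medians was that of the 15 MHC class II genes, 0.45 in set A and -0.04 in set B. None was called in the interaction by edgeR, with 1 at an unadjusted p under 0.05, nor by DESeq2. Interferon-stimulated genes (36 tested) had medians of -0.18 and 0.08, and ATF4 and stress-response targets (34 tested) of -0.11 and -0.30, with no interaction call by either tool and 2 and 1 members at an unadjusted p under 0.05.

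By position, interaction genes lay on every autosome but 13 and 21 and on chromosome X. The share called was highest on chromosome 18 (3 of 302 genes, 0.993%) and chromosome 7 (8 of 902, 0.887%), with median interactions of -0.00257 and 0.05 over all genes of these chromosomes. Of the 3 genes on chromosome 18, 2 were PIEZO2 and the antisense locus ENSG00000264843 inside it. Besides this pair and RASSF8 with RASSF8-AS1, whose spans overlap, the interaction genes within 2 Mb of each other included GLUL and RGS8 (0.250 Mb apart), which were called in set A only and set B only, and SLFN11 and RASL10B (0.358 Mb), likewise. EPB41L2 and ENPP1 (0.745 Mb), and HEPACAM2 and PEG10 (1.43 Mb), fell together in set B only. The genes tested between the members of each of these 4 pairs, 3 to 10 in number, were not called in the interaction. The span of another tested gene overlapped 19 of the 68 interaction genes and 38 of the 93 shared genes, among them B3GALNT1 (NMD3) and HOXA7 (HOXA-AS3) on opposite strands.

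The counts depended on single libraries, and so did many single calls. These included the interaction calls of HK1, HOXA7, CLEC17A and ZNF181 and the shared calls of NRP2, H2AC6, H2BC11 and H3C10. Of the 68 interaction genes, 27 were called in all 10 fits that left out 1 sample, 26 in 5 to 9 of them, 13 in 1 to 4, and LACTB2 and ENSG00000264660 in none. Without R475C replicate 3 the interaction was called for 32 genes and the shared class held 29. Of the 93 shared genes, 12 held in all 10 such fits and 8 in none. Summing the closest samples into 1 library each (wild-type 1 and 4, 2 and 6, 3 and 5, and R475C 1 and 3, 2 and 4) left 5 libraries and 1 residual degree of freedom. Then 1 gene, EPB41L2, was called in the interaction and no gene in both sets.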

How the data were processed

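Gene-level read counts, whole and not normalized, are what the authors deposited, in 1 table for 10 samples. They used cutadapt 1.10, STAR 2.6.0c and featureCounts (no version named), per the submitters' processing notes. No source used here gives the build, the annotation or the strandedness of counting. GENCODE release 29 (GRCh38) has the same 58721 gene IDs and supplied coordinates, and upstream sequences came from RefSeq (GRCh38.p14).

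Genotype came from the sample titles and the set from the correlation of the samples' expression. Counts were fitted with edgeR 4.0.16 in R 4.3.3 (TMM, filterByExpr over the 4 groups, minimum count 10, minimum total 15, 4 group means, glmQLFit and glmQLFTest, two-sided). P-values of the 18358 retained genes were adjusted together (Benjamini-Hochberg), with a threshold of 0.05. The common biological coefficient of variation was 0.206 with 6 residual degrees of freedom. Standard errors are the log2 fold change over the square root of F. The fit was also run on simulated independent libraries without shared clones. A known change was put into some genes in the set A R475C samples alone, and the sets did not differ otherwise. That run cannot show how the fit behaves where samples share a clone or sets are chosen from expression. CPM use TMM library sizes. Counting intervals are exact binomial at 95% and, like the floor of 3 counts, cover counting error only.

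The members, sets and lists were chosen with earlier results of these data known. Genes were named by class and direction, up to 5 protein-coding genes with at least 5 CPM in a group, by size of interaction (for shared genes, by the smaller set effect) and without overlap between genotypes in the set called, with antigen receptor segments and loci without a name set aside. Up to 4 interaction genes were named per list. DDX3X, BCL6, BACH2, PRDM1, XBP1, IRF4, MYC, BCL2, MS4A1, CD38, CDKN1A, MARCKS, ZNF93, LIN7A, C8orf88, NECAB1, KBTBD12, TP63 and CCR7 were given whatever their values. All other genes, FUT8, CDKN1B, CDKN2C and the histone genes included, were named after their values were seen. Some genes, interaction genes among them, are not reported here. Replicate numbers are in the titles of both genotypes but do not pair the samples. The alternatives were RLE factors, no filter, a filter over the genotypes, DESeq2 1.42.0, limma-voom (limma 3.58.1), the replicate block, thinning to the smallest library, summed closest samples, subsets of the set B controls, each set alone and each sample left out.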

Additional observations from a re-analysis of the deposited data

Results flagged for a closer look

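Of the 68 genes whose set A effect minus set B effect was called, 66 are listed here with that difference in log2 units. They stand out because the R475C effect in set A differed from that in set B by edgeR's interaction term. The sets were read from the same expression values, so the list describes the samples as sorted.

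Among genes called in set A only and lower in R475C there, the difference was -7.34 for RASSF8-AS1, -5.71 for RPRM, -5.42 for GLUL, -5.27 for ENSG00000264843, -4.70 for DOCK10 and -4.59 for PTPRG. Next in size it was -4.57 for PDE3B, -4.49 for SPARC, -4.36 for PIEZO2, -4.03 for PRTG, -3.79 for VWDE and -3.56 for CR2. It was then -3.30 for ADAMTS17, -2.82 for SUSD1, -2.65 for RASSF8, -2.44 for S100A10, -2.36 for MVB12B and -2.34 for GSPT2. The smallest differences of this kind were -2.18 for ENSG00000264660, -2.06 for SLFN11, -1.997 for ITGB8, -1.80 for TIE1, -1.66 for CD44 and -1.49 for TNFRSF13B. Among those higher in R475C it was 1.34 for ABLIM1, 2.87 for STXBP6, 3.18 for ZNF181, 3.95 for ZNF175 and 5.58 for ZNF256.

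Among genes called in set B only and higher in R475C there, the set A effect minus the set B effect was -8.35 for CPXM1, -8.05 for ATF7IP2, -7.97 for RAB34, -6.79 for CELF2, -6.05 for HOXA7 and -4.33 for ZNF555. For the others of this kind it was -3.60 for RASL10B, -3.52 for AGMAT, -2.42 for GOLM1 and -1.94 for RGS8. For genes lower in R475C in set B it was 9.34 for C11orf21, 7.90 for BEND4, 7.63 for ZNF697, 5.99 for EPB41L2 and 5.68 for BEX4. After these it was 4.52 for EPDR1, 4.49 for LIN7A, 4.13 for PLCB1, 3.86 for TTC39C, 3.61 for ENPP1 and 2.99 for HCG11. Smaller values were 2.74 for HEPACAM2, 2.49 for PEG10, 2.49 for MPP7, 2.37 for MAGEH1, 2.02 for BMP7 and 2.00 for CLEC17A. The smallest were 1.59 for HK1, 1.49 for TEAD4 and 1.15 for LACTB2.

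For genes with opposite effects it was -3.27 for NLRP7, 2.65 for TFEC, 12.53 for B3GALNT1 and 14.93 for DPY19L2P1. The fitted differences of RASSF8-AS1, C11orf21 and DPY19L2P1 involve a group with 0 counts, depend on the prior count of the fit and are no bounds. For the 3 remaining genes it was -3.14 for ENAH, -2.59 for BMP3 and 3.32 for GALM.

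In 3 genes 1 of the 4 set B wild-type samples lay far from the other 3. Wild-type replicate 3 had 76.7 CPM of CD44, wild-type replicate 2 had 63.0 CPM of TNFRSF13B and wild-type replicate 5 had 12.6 CPM of BEX4. Chance alone flags about 1 in 20 such groups of 4.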

How the results depend on the processing

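Counts of calls for the interaction, set A, set B, shared, set A only, set B only and opposite were 68, 250, 559, 93, 29, 31 and 5. Without a filter on low counts they were 364, 776, 1388, 294, 119, 153 and 37, and with DESeq2 175, 529, 1090, 217, 67, 70 and 14. With closest samples summed they were 1, 0, 1, 0, 0, 1 and 0, with 1 residual degree of freedom. With limma-voom 19 genes were called in set A only and 3 with opposite effects. Thinning to the smallest library left 42 in the interaction, 18 in set B only and 2 opposite. With wild-type 2 and 6 as the only set B controls the interaction, set A only, set B only and opposite counts were 135, 44, 70 and 11. With wild-type 3 and 5 they were 213, 50, 121 and 20, and set A had 378 calls. Wild-type 2 and 6 correlated at 0.982 and wild-type 3 and 5 at 0.977. Across these pairs the correlations were 0.964 to 0.968. Some alternatives leave fewer samples or genes, and the cause of the shifts was not tested. The 68 interaction genes were called by DESeq2 in all 68 cases, by limma-voom in 41 and after thinning in 41. CPXM1, CELF2, SPARC and LIN7A were among those called neither by limma-voom nor after thinning.

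Leaving out 1 sample gave 32 to 79 calls in the interaction, 71 to 257 in set A, 127 to 666 in set B, 29 to 88 shared, 16 to 33 in set A only, 13 to 39 in set B only and 1 to 5 opposite. A group left with 1 sample is assumed to vary like the others. The interaction moved by over 1.5 times without R475C 1 (39) or R475C 3 (32). Set A did so without R475C 1 (72), R475C 3 (71), wild-type 1 (166) or wild-type 4 (114). Set B did so without R475C 2 (127), R475C 4 (197) or wild-type 5 (354), and the shared class without R475C 1 (31), 2 (36), 3 (29) or 4 (48) or wild-type 4 (51). Opposite calls fell to 1 without wild-type 1, to 2 without wild-type 4, R475C 1 or R475C 3, and to 3 without wild-type 5 or R475C 2. Set A only fell to 18 without R475C 1 and 16 without R475C 3, and set B only to 17 without R475C 1 or R475C 2, 13 without R475C 3 and 19 without R475C 4.

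The correlations of same-numbered samples' deviations from the mean of their own genotype and set were -0.0203, -0.014, -0.0653 and 0.273 for numbers 1 to 4. They were not all above 0.1, so the replicate block was only an alternative. With the replicate block the interaction, set A and set B counts were 331, 661 and 1004, and the set A only, set B only and opposite counts 101, 152 and 66. That block adds a term for each replicate number, so its fit leaves far fewer residual degrees of freedom than the main fit. Over named genes and all alternatives, 2396 of 2853 values kept their side of the threshold, 429 lost the call and 28 gained one. No value called in the main fit or in the alternative reversed in sign. Sign changes of values called in neither were not counted. Depth limits genes near absence, whose fitted differences are uncertain in size.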
